A study of Mus musculus with 165 samples.

Results

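Compartment maps list long stretches of the genome as A or B and leave short ones out. The regions described here are the autosomal bins of 25 kb that had a score in all 4 deposited Hi-C tracks and whose centre lay in no listed compartment domain of untreated neutrophils. They were 1398 of 94800 autosomal bins (1.47%, 34.95 Mb), out of 100652 bins with a score in all tracks over all chromosomes. The score is PC1, the first principal component of the Hi-C contact matrix, and has no unit. Bins above zero are called compartment A and bins below zero compartment B, after convention, and how the sign relates to genes was not tested here.

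The domain lists were made from the untreated neutrophil track, so these bins were chosen by the PC1 values of that track, and its values in them are given as a description. What the rule picked out is nearly a rule of length. The shortest listed domain was 100 kb, and 1394 of the 1398 bins lay in stretches of 1 to 3 neighbouring bins with the same sign in the untreated track. The other 4 were each the last bin of a chromosome's values. Only 78 of 93402 domain bins lay in such short stretches. By sign, the bins are therefore short islands: 815 were above zero (A members) and 583 below zero (B members) in untreated neutrophils. Many lay near zero there. Absolute PC1 was under 0.1 in 43.4% of members and 59.0% of B members. It was so in 2.85% of domain bins and 34.3% of the first and last bins of domains. Whether such short stretches near zero form a compartment was not tested.

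Chromatin of the A compartment is mostly open, gene-rich and transcribed, and it contacts other A chromatin. B chromatin is mostly compact, poor in genes and often placed at the nuclear lamina or around nucleoli. A compartment can be as small as the region around an active gene, and a short A stretch in B chromatin meets long inactive neighbours on both sides. Neutrophils have lobed nuclei with much condensed chromatin, and an influx of calcium is among the signals that activate them.

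The tracks come from in situ Hi-C, which ligates DNA ends that lie close together in cross-linked nuclei, and the series asks how calcium signalling alters nuclear architecture. All 4 groups are ECOMG cells or neutrophils made from them, a GM-CSF-dependent mouse myeloid line of strain C57BL/6 whose genotype is given as human E2A_ER_Pbx1b, wild type, so each result belongs to 1 cultured line. The groups are progenitors (a pool of 7 libraries), untreated neutrophils made by 5 days without estradiol (a pool of 8 libraries from 7 replicates), and such neutrophils after 15 min or 30 min with 20 uM of the calcium ionophore A23187 in medium with 1 mM calcium (1 sample each). Since the labels call the 15 min sample replicate 2 and the 30 min one replicate 1, time and replicate cannot be told apart. Progenitor and untreated libraries are labelled as re-analysed and were sequenced on another instrument model than the activated ones, so activation cannot be told apart from batch in any comparison with them. Each group has 1 track and the reads behind it are unknown, so no p-value is given, no difference has a replicate check, and spreads are ranges over the 19 autosomes, which are not replicates. Over all autosomal bins, 42.9% were above zero in progenitors, 41.7% in untreated neutrophils, 46.9% after 15 min and 44.0% after 30 min. The variance of a bin around its neighbours 50 kb away was 0.0193, 0.0330, 0.0177 and 0.00885 in these tracks, in the same order, so the 30 min track was the smoothest and the untreated track the roughest.

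The members formed 681 islands, 386 of A and 295 of B. There were 190 islands of 1 bin, 257 of 2 bins and 230 of 3 bins. A listed domain of the opposite sign lay on both sides of 402 islands. Another 264 lay beside a further short stretch, and the remaining 15 bordered a stretch without values. Joined with their neighbours they made 530 unbroken runs, of which 440 were at most 75 kb long and 90 were longer. Of these runs, 261 had B domains on both sides, 169 had A domains on both sides and 82 had an A domain on one side and a B domain on the other. The last kind held 59 of the 90 runs of at least 100 kb. This share is partly fixed by the rule, since such runs nearly all hold at least 2 islands of alternating sign. Exactly 2 islands with a domain on each side nearly always lie between an A and a B domain. The share of bins that were members ranged from 0.616% on chromosome 5 to 2.19% on chromosome 10. Members lay somewhat more often within 250 kb of a stretch without values (4.86%) than domain bins did (2.88%).

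The members had scores closest to zero in the track that chose them. Their median absolute PC1 was 0.367 in progenitors, 0.123 in untreated neutrophils, 0.343 after 15 min and 0.353 after 30 min. In domain bins it was 0.933, 0.917, 1.03 and 0.974 in the same tracks. The median PC1 of all members was 0.0845 in progenitors (quartiles -0.270 and 0.500), 0.0411 in untreated neutrophils (-0.0604 and 0.205), 0.314 after 15 min (0.0629 and 0.549) and 0.151 after 30 min (-0.194 and 0.516). Above zero were 55.4% of members in progenitors, 58.3% in untreated neutrophils, 79.8% after 15 min and 61.4% after 30 min. The high share at 15 min held on the deposited scale only. Quantile normalization gives each track the distribution of the untreated one, with 41.7% of all autosomal bins above zero. With it, 50.2% of members were above zero in progenitors, 53.1% after 15 min and 50.1% after 30 min. It also takes away the difference between tracks in the share of all bins above zero. The source of the high share was thus not tested.

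**Figure D1:**
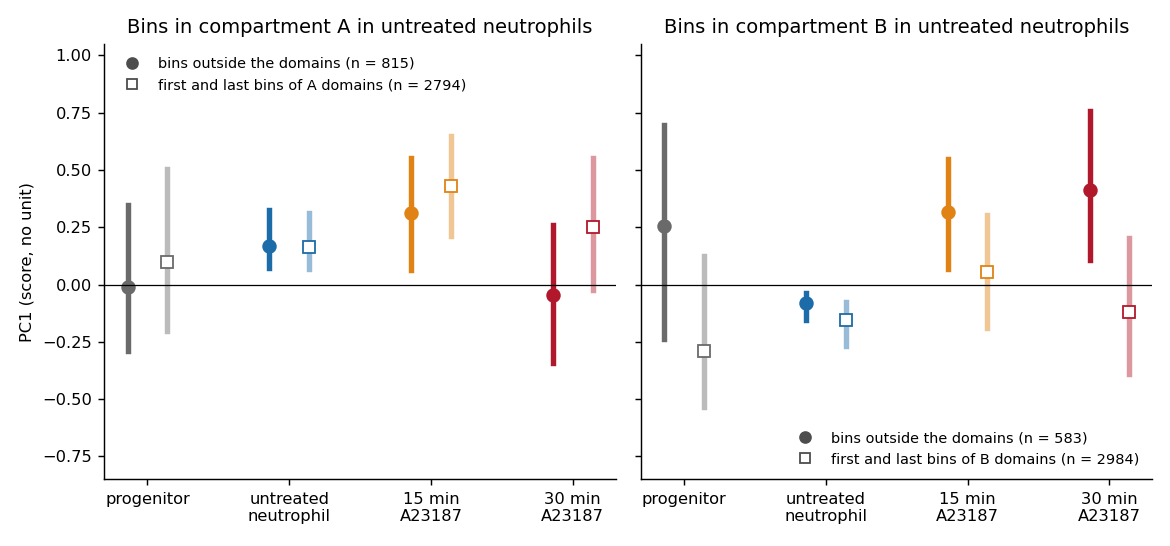
PC1 of the A members (left, n = 815) and B members (right, n = 583) in the 4 tracks, as filled circles for the median and bars from the lower to the upper quartile, beside the first and last bins of listed domains as open squares. At 15 min the A and B members have almost the same median, 0.314 and 0.315, while at 30 min their medians are -0.0463 and 0.411.

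Split by their untreated sign, the members had the lowest median at 30 min where they were A, and the highest at 30 min where they were B. A members had a median of -0.0112 in progenitors, 0.170 in untreated neutrophils, 0.314 after 15 min and -0.0463 after 30 min. They were above zero in 49.3% of bins in progenitors, 100% in untreated neutrophils by the rule, 79.3% after 15 min and 46.1% after 30 min. B members had medians of 0.257 in progenitors, -0.0790 in untreated neutrophils, 0.315 after 15 min and 0.411 after 30 min. Above zero were 64.0% of them in progenitors, 0% in untreated neutrophils by the rule, 80.6% after 15 min and 82.7% after 30 min. Outside the untreated track, B members were thus more often A than the A members were in each of the 3 tracks. At 15 min the shares lay close together, and their order depended on members near zero. Among members with an absolute untreated PC1 of at least 0.1, 81.2% of A members were A at 15 min. Of such B members 28.5% were still B at 15 min, so they were then less often A than the A members.

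The bins at the ends of listed domains are the nearest comparison, since they too lie next to a change of sign. First and last bins of A domains (n = 2794) were above zero in 58.6% of cases in progenitors, 90.4% at 15 min and 72.7% at 30 min. First and last bins of B domains (n = 2984) were above zero in 31.0%, 56.1% and 39.7% in those tracks. The untreated sign therefore carried over at domain ends more than in the islands.

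All 3 other tracks had the untreated sign in 325 members (23.2%), against 44.0% of domain end bins and 92.1% of the remaining domain bins. All 3 had the other sign in 453 members (32.4%), against 15.1% of domain end bins and 1.59% of the remaining ones. The A and B members differed here. Of A members, 267 (32.8%) were A in every track and 117 (14.4%) were A in untreated neutrophils alone. Of B members, 58 (9.95%) were B in every track and 336 (57.6%) were B in untreated neutrophils alone.

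That last pattern, A in progenitors, B in untreated neutrophils and A at both times of activation, was the most frequent of the 16 combinations of sign among members (24.0%), and it held 2.04% of domain bins. Next came A in all 4 tracks, with 19.1% of members and 38.1% of domain bins. A in untreated neutrophils and at 15 min but B in progenitors and at 30 min took 14.5% of members and 0.777% of domain bins. A in untreated neutrophils alone took 8.37% of members and 0.381% of domain bins. B in all 4 tracks, the commonest state of domain bins (51.1%), took 4.15% of members. These shares are a description, since the rule fixed where the untreated sign changes.

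The islands were local peaks and dips in every track, even where their sign was lost. Among islands with a listed domain of the opposite sign on both sides and 100 kb of values there, 251 were A islands in B surroundings (550 bins) and 149 were B islands in A surroundings (292 bins). The height of an island is its mean PC1 minus the mean of the 100 kb on each side. A islands had a median height of 0.391 in progenitors, 0.688 in untreated neutrophils, 0.547 after 15 min and 0.277 after 30 min. They stood above their surroundings in 248, 251, 248 and 249 of 251 cases in those tracks, and 245 (97.6%) did so in all 4.

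B islands were the mirror image, with a smaller median size in every track on the deposited scale. Their median height was -0.272 in progenitors, -0.595 in untreated neutrophils, -0.340 after 15 min and -0.177 after 30 min. They lay below their surroundings in 147, 149, 149 and 144 of 149 cases in the same tracks, and in all 4 in 142 (95.3%). The untreated heights belong to the rule, while the other 3 tracks did not enter it. With quantile normalization the median height at 15 min was 0.439 for A islands and -0.448 for B islands, so B islands were not the smaller there.

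The islands were flatter at 30 min than at 15 min. The height was smaller in size in 239 of 251 A islands (95.2%) and in 137 of 149 B islands (91.9%). At 15 min against progenitors, the height was larger in 191 A islands (76.1%) and in 95 B islands (63.8%). At 30 min against progenitors it was smaller in 191 A islands (76.1%) and 120 B islands (80.5%). The 30 min track was also the smoothest over the whole genome. Divided by each track's own SD of domain bins around their neighbours, the median A height was 2.88 in progenitors, 3.95 in untreated neutrophils, 4.29 after 15 min and 3.01 after 30 min. On that scale the A islands at 30 min were close to those of progenitors, and they were still lower than at 15 min. For B islands it was -2.00, -3.41, -2.67 and -1.92 in the same tracks.

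**Figure D2:**
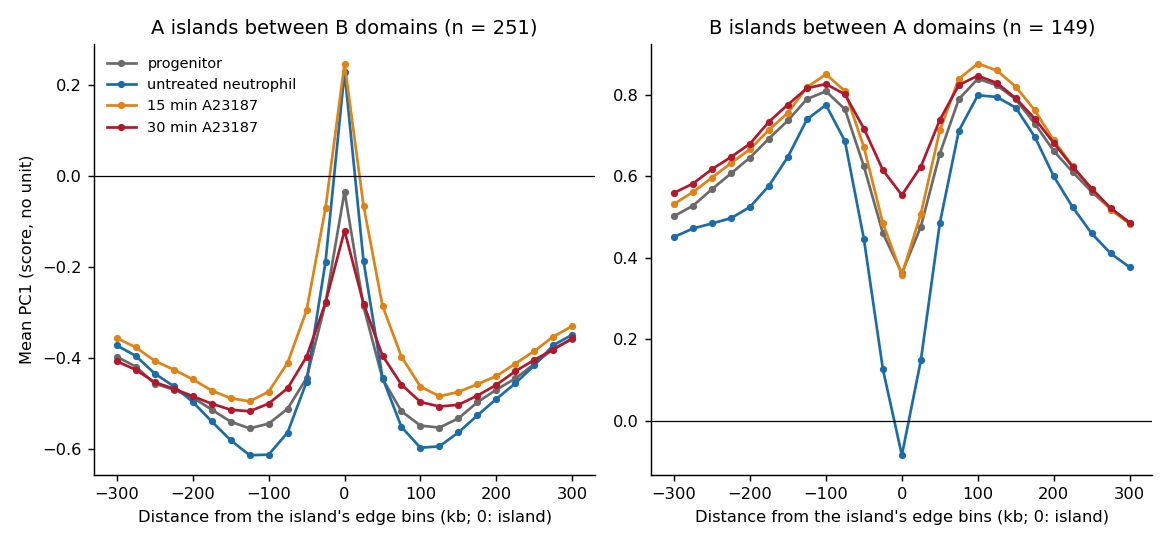
Mean PC1 around the 251 A islands and 149 B islands against distance from the bins at their edges, in kb, with 1 line per track. The peak of the A islands reaches 0.246 at 15 min and -0.120 at 30 min, while the values 100 kb away lie between -0.612 and -0.462 in all 4 tracks.

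The profile shows how closely the islands were confined. In the mean over A islands at 15 min, PC1 was 0.246 in the island, -0.0701 and -0.0653 in the next bin to either side, and -0.474 and -0.462 at 100 kb. At 30 min it was -0.120 in the island, -0.278 and -0.280 in the next bins, and -0.500 and -0.496 at 100 kb. The distant surroundings of the A islands thus differed little between the times, and the islands themselves differed by much more. Scores are spaced at 25 kb but computed in windows of 50 kb, which overlap, so the score of an island of 1 bin is not independent of the bins beside it.

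A peak counts as an island of its own only where its sign differs from that of its surroundings. A islands met this in 64 of 251 cases in progenitors (25.5%), 136 at 15 min (54.2%) and 47 at 30 min (18.7%). In progenitors 151 had taken the B sign of their surroundings, against 62 at 15 min and 172 at 30 min. The surroundings had an A mean in a further 36 cases in progenitors, 52 at 15 min and 32 at 30 min. B islands were present in 31 of 149 cases in progenitors (20.8%), 14 at 15 min (9.40%) and 9 at 30 min (6.04%), and the rest nearly all had the A sign of their surroundings. With quantile normalization B islands were present in 20.8% of cases in progenitors, 28.9% at 15 min and 11.4% at 30 min, so 15 min was then above progenitors and not below them.

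Longer A islands were present more often. At 15 min, 34.0% of those of 1 bin, 51.5% of those of 2 bins and 67.3% of those of 3 bins were A in B surroundings. At 30 min the shares were 15.1%, 17.5% and 21.8% in the same order of length. Of the 251 A islands, 76 were present in none of the other 3 tracks, 113 in 1, 52 in 2 and 10 in all. Of the 149 B islands, 113 were present in none of them and 4 in all.

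**Figure D3:**
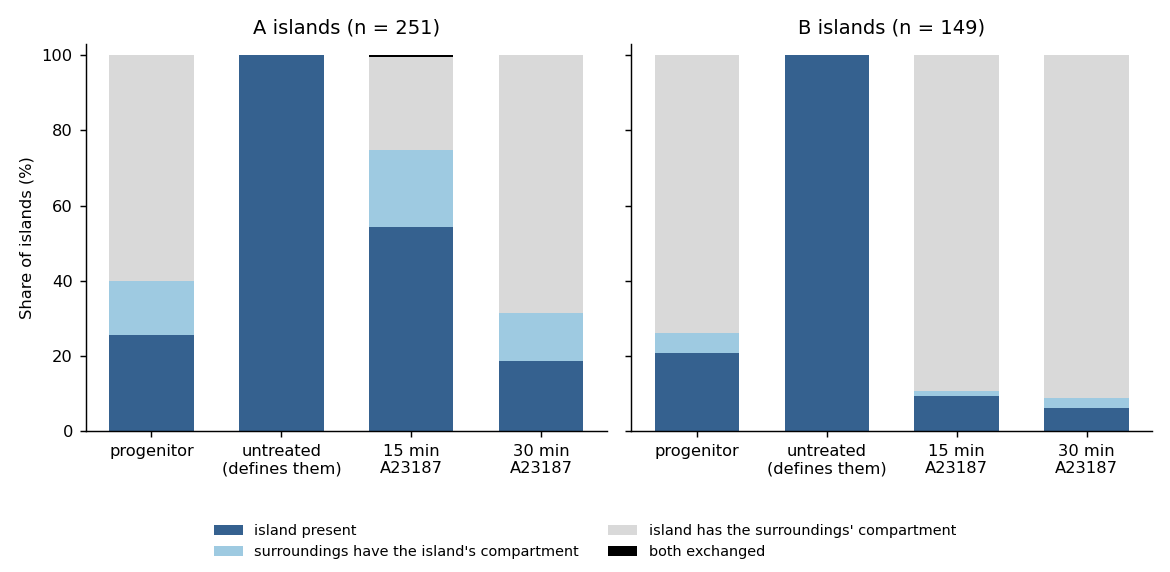
Share of the 251 A islands and 149 B islands that, in each track, kept a sign of their own, shared the island's sign with their surroundings, or had the sign of the surroundings. A islands of their own make up 54.2% at 15 min, against 18.7% at 30 min and 25.5% in progenitors.

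The A islands present in all 4 tracks are named here after their values were seen. Of the 10, 7 were 3 bins long. The island on chromosome 6 from 73150001 to 73225000 had a mean PC1 of 0.475 in progenitors, 0.577 in untreated neutrophils, 0.728 after 15 min and 0.176 after 30 min, and its surroundings were between -0.485 and -0.106. The island on chromosome 13 from 38700001 to 38775000 had 0.620, 0.604, 0.495 and 0.0381 in the same tracks. Both were lowest at 30 min. Among the 4 B islands present throughout, that on chromosome 5 from 45950001 to 46025000 had -0.458 in progenitors, -0.285 in untreated neutrophils, -0.0390 after 15 min and -0.122 after 30 min.

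Beyond these islands, the local shape of all members carried over between tracks. Each bin was set against the average of its neighbours 50 kb up and down the chromosome, which 1373 members had. The deviation ran the same way as the untreated sign in 90.6% of members in progenitors, 93.8% at 15 min and 90.1% at 30 min. In domain bins those shares were 58.7%, 61.8% and 60.7%. First and last bins of A domains had 36.4%, 50.4% and 45.5% in the same tracks. Those of B domains, which came nearest to the members, had 80.0%, 77.5% and 76.1%. In the untreated track the share was already 97.2% in members, by the rule, and 61.4% in domain bins. There it was 41.8% in first and last bins of A domains and 84.4% in those of B domains. The distance between members and the other bins is thus no measure of a stronger carry-over. The mean deviation in the untreated direction was 0.215 in progenitors, 0.381 in untreated neutrophils, 0.271 after 15 min and 0.139 after 30 min. The shape was therefore shared by tracks that had no part in the rule, while the level around zero was not.

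Activation for 30 min was compared with 15 min, a pair whose difference does not use untreated values. The untreated track still chose the members and split them into A and B, so the contrast between these is a description. A bin is called switched where its sign differs between the tracks and the difference reaches 0.5 root mean squares of the track it is set against. In all, 209 members were switched at 30 min (14.9%), against 2.36% of all autosomal bins. Of these, 186 (13.3% of members, 4.35% to 24.0% over autosomes) had switched to B, being B at 30 min and A at 15 min, against 1.84% of all autosomal bins and 6.94% of domain end bins. The other 23 (1.65%) had switched to A, against 0.523% of all bins. Nearly all of the switches to B, 178 of 186, were A members, of which 21.8% switched so.

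The mean PC1 of A members was 0.00704 at 30 min and 0.294 at 15 min, a difference of -0.287 that was below zero on all 19 autosomes (-0.464 to -0.118). The mean of B members was 0.404 at 30 min and 0.297 at 15 min, a difference of 0.108 that was above zero on 15 of 19. Domain end bins differed by -0.135. A members were thus lower at 30 min than at 15 min and B members, on most autosomes, higher. The share of A members above zero was lower at 30 min than at 15 min on 19 of 19 autosomes, by 10.3 to 50.0 percentage points. With quantile normalization the difference was -0.153 in A members, below zero on all autosomes but 1, and 0.222 in B members, above zero on 19 of 19. The size of the lead of switches to B depended on the scale of the tracks too, and switches to A then made up 39.4% of the switched members, against 11.0% with the scores as deposited.

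**Figure D4:**
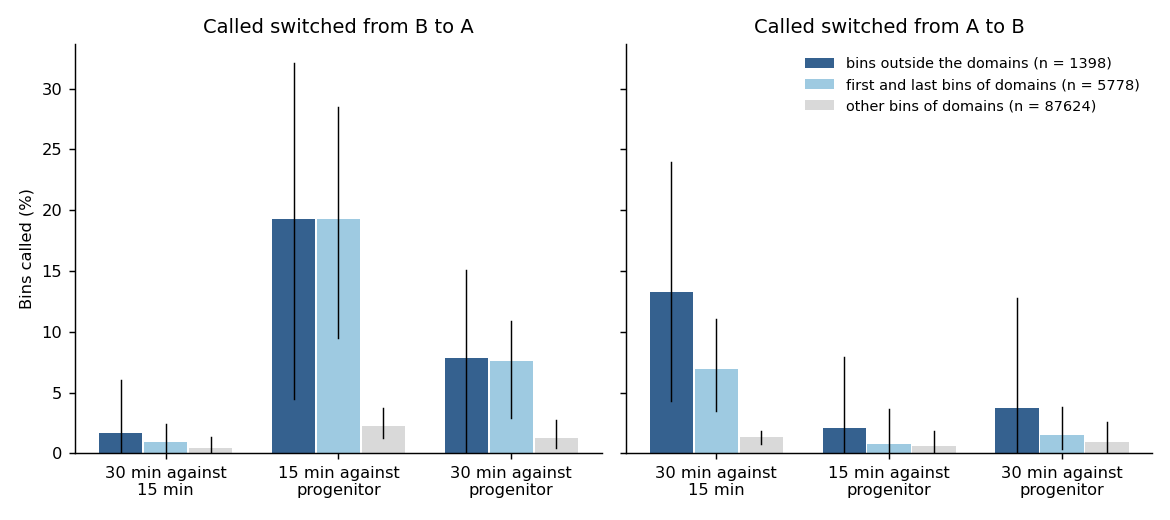
Percent of bins called switched in each direction, for members, first and last bins of domains and other domain bins, in the 3 pairs without the untreated track, with lines for the range over autosomes. Members switch to B most often at 30 min against 15 min (13.3%), and to A most often at 15 min against progenitors (19.2%).

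Neutrophils at 15 min of activation were then set against progenitors. At 15 min 298 members were switched (21.3%), against 4.18% of all autosomal bins. To A switched 269 members (19.2%), against 3.53% of all autosomal bins, but domain end bins reached 19.3%, so the share in islands was near that of other bins beside a change of sign. To B switched 29 members (2.07%), against 0.651% of all bins. The mean of A members was 0.294 at 15 min and 0.0641 in progenitors, and the difference of 0.230 was above zero on 19 of 19 autosomes. B members averaged 0.297 at 15 min and 0.252 in progenitors, and domain end bins differed by 0.238. With quantile normalization, switches to A made up 55.0% of the switched members, against 90.3% as deposited. The mean difference was then 0.0403 in A members, above zero on 12 of 19 autosomes, and -0.150 in B members, above zero on 2 of 19. On that scale the higher level at 15 min was thus small in A members and absent in B members.

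At 30 min against progenitors fewer members were switched, 162 (11.6%), against 2.74% of all autosomal bins. To A switched 110 (7.87%), against 1.74% of all bins and 7.63% of domain end bins. To B switched 52 (3.72%), against 1.00% of all bins and 1.52% of domain end bins. A members averaged 0.00704 at 30 min and 0.0641 in progenitors, and their difference was above zero on 6 of 19 autosomes. B members averaged 0.404 at 30 min and 0.252 in progenitors, a difference of 0.152 that was above zero on 19 of 19. Switches to A made up 67.9% of these as deposited and 49.1% after quantile normalization, which gave mean differences of -0.112 in A members and 0.0724 in B members.

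**Figure D5:**
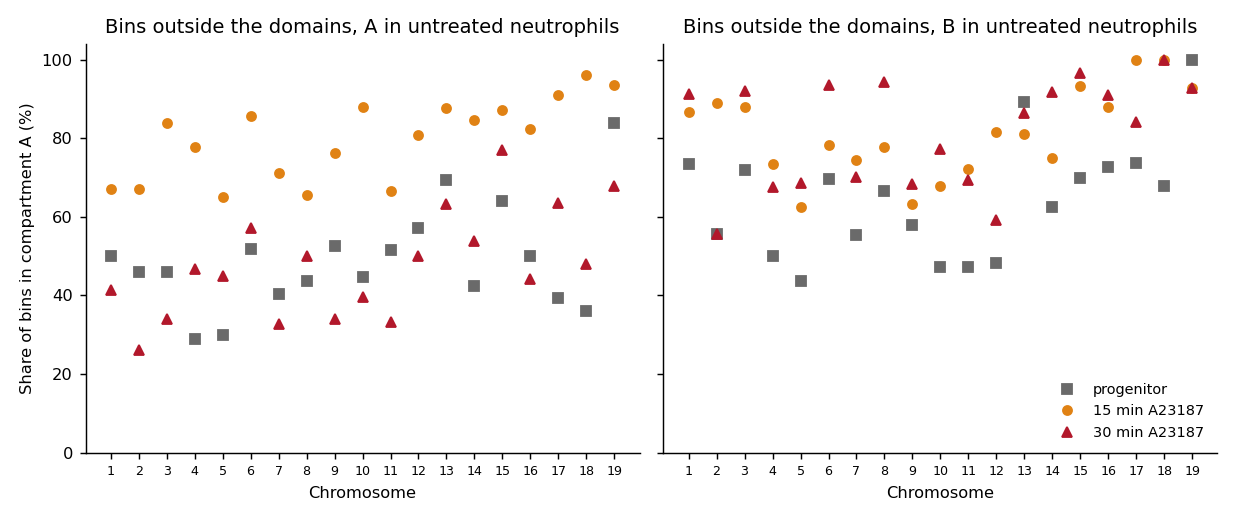
Percent of A members (left) and of B members (right) above zero on each autosome, in progenitors (squares), at 15 min (circles) and at 30 min (triangles). A members lie lower at 30 min than at 15 min on all 19 autosomes, and B members lie higher at 30 min than in progenitors on 16 of 19.

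The pairs with the untreated track share the track that chose the members, so their counts show the rule as well as the cells. In untreated neutrophils against progenitors, 439 members were switched (31.4%), beside 5.28% of all autosomal bins. They were 205 switches to A (14.7%), beside 1.92% of all bins, and 234 to B (16.7%), beside 3.36%. Which direction led here depended on the settings: switches to A were 46.7% of these, 52.5% with a sign change of any size and 54.0% with quantile normalization. With a least difference of 1 root mean square, 85 members were switched, 12.9% of them to A. Members lay near zero in untreated neutrophils by the rule. Their progenitor scores ran from -0.922 to 1.60, further above zero than below it, so that limit was reached more easily from the A side. At 15 min against untreated neutrophils 279 members were switched (20.0%), beside 3.69% of all bins. To A went 239 (17.1%), beside 3.47% of all bins, and to B 40 (2.86%), beside 0.224%. At 30 min against untreated neutrophils 550 members were switched (39.3%), beside 3.75% of all bins, with 302 to A (21.6%), beside 2.74%, and 248 to B (17.7%), beside 1.01%. With quantile normalization, switches to A made up 37.8% of the switched members at 15 min, against 85.7% as deposited, and 39.6% at 30 min, against 54.9%. A least difference of 1 root mean square left 85 switched members at 30 min, of which 91.8% went to A. Scores of members at 30 min ran from -0.854 to 1.46, so the limit was again easier to reach above zero. Both shares at this limit are therefore not read as a direction of the cells.

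Sizes of difference were larger in members than in all domain bins in each of the 6 pairs of tracks, but not always larger than in domain end bins. At 30 min against 15 min the median absolute difference was 0.304 in members, 0.236 in domain end bins and 0.119 in all domain bins. At 15 min and at 30 min against progenitors it was 0.315 and 0.229 in members, 0.338 and 0.218 in domain end bins, and 0.159 and 0.107 in all domain bins. Bins near zero differed more throughout the genome. Among bins whose mean over the 3 tracks outside the rule lay between -0.2 and 0, the mean of 30 min minus 15 min was -0.261 in 258 members, -0.214 in 1033 domain end bins and -0.169 in all 3296 domain bins. Where that mean was 0.6 or more, it was 0.196 in 249 members, 0.108 in domain end bins and 0.0455 in domain bins.

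The domains around a run went with its state in the other tracks. Runs between A domains held 403 members, of which 73.2% were above zero in progenitors, 9.43% in untreated neutrophils, 86.8% after 15 min and 90.1% after 30 min. Runs between B domains held 618 members, with 43.7%, 95.8%, 75.4% and 35.8% above zero in the same tracks. Runs between an A and a B domain held 334 members, with 53.9%, 49.1%, 79.6% and 72.2% above zero. Among the 3 tracks outside the rule, runs between 2 domains of 1 kind had the compartment of those domains most often at 30 min. Counted over all runs with 1 bin to each side, the sign changed between neighbouring bins 205 times in progenitors, 1199 times in untreated neutrophils, where the rule requires it, 300 times after 15 min and 151 times after 30 min.

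Individual runs show what these shares are made of; positions are in the mouse build mm9. The longest, of 275 kb on chromosome 7 from 48625001 to 48900000, lay between B domains and had a mean PC1 of -0.480 in progenitors, -0.0395 in untreated neutrophils, -0.0264 after 15 min and -0.577 after 30 min. Its sign changed 6 times along the run and 1 bin to each side, both in untreated neutrophils and at 15 min, and did not change in progenitors or at 30 min. The next, of 225 kb on chromosome 10 from 6425001 to 6650000 between an A and a B domain, had -0.493 in progenitors, -0.00241 in untreated neutrophils, 1.11 after 15 min and 0.0313 after 30 min. It was far above zero at 15 min and near zero at 30 min. The run on chromosome 11 from 101700001 to 101900000, between A domains, had 0.789, -0.0238, 0.586 and 0.902 in those tracks and was near zero in untreated neutrophils alone.

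Runs with the highest mean over the 3 tracks outside the rule were strongly A there. On chromosome 7 from 74025001 to 74175000, PC1 was 1.48 in progenitors, -0.0199 in untreated neutrophils, 0.713 after 15 min and 1.17 after 30 min. On chromosome 1 from 137800001 to 137900000 it was 1.10, -0.0313, 0.826 and 1.12 in the same tracks. The lowest runs were strongly B outside the untreated track. On chromosome 4 from 70925001 to 71050000, PC1 was -0.729 in progenitors, 0.0830 in untreated neutrophils, -0.556 after 15 min and -0.671 after 30 min. On chromosome 1 from 103775001 to 103825000 it was -0.680, 0.153, -0.794 and -0.453. All these runs were chosen for their extreme values in the tracks outside the rule.

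Runs were also taken from both ends of the difference between the times. On chromosome 1 from 56200001 to 56275000, PC1 was 0.375 in progenitors, 0.175 in untreated neutrophils, -0.215 after 15 min and 0.970 after 30 min. The run on chromosome 2 from 168375001 to 168425000 had 0.281, 0.120, -0.778 and 0.234. Both were A except at 15 min. On chromosome 16 from 67600001 to 67650000, PC1 was -0.246 in progenitors, 0.0836 in untreated neutrophils, 0.624 after 15 min and -0.581 after 30 min. The run on chromosome 12 from 99475001 to 99525000 had -0.248, 0.365, 1.09 and 0.107, and that on chromosome 3 from 42200001 to 42275000 had 0.631, 0.183, 1.19 and 0.117. These 3 lay between B domains and were highest at 15 min.

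Differences between the progenitor and both activated tracks were as large in a few runs. On chromosome 6 from 64425001 to 64500000, PC1 was -0.471 in progenitors, 0.382 in untreated neutrophils, 0.704 after 15 min and 0.595 after 30 min. The mean of the activated tracks was 1.12 above the progenitor track, and all 3 neutrophil tracks were A. On chromosome 7 from 145375001 to 145425000, PC1 was 0.535 in progenitors, 0.230 in untreated neutrophils, -0.988 after 15 min and -0.238 after 30 min, and the activated tracks differed from the progenitor track by -1.15 on average. The run on chromosome 9 from 85300001 to 85425000 had 0.775, 0.0318, 0.0126 and -0.0726, so it was clearly A in progenitors alone.

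The limit of length divided bins that were alike for A and unlike for B. A members in stretches of 3 bins (n = 420), just inside the rule, had medians of 0.0812 in progenitors, 0.243 in untreated neutrophils, 0.364 after 15 min and 0.0165 after 30 min. Bins of A domains of 4 bins (n = 476), just outside it, had 0.110, 0.372, 0.444 and 0.0867. B members in stretches of 3 bins (n = 270) had medians of 0.161, -0.119, 0.302 and 0.351 in the same tracks. Bins of B domains of 4 bins (n = 407) had -0.205, -0.202, 0.108 and 0.173. B domains of 4 bins thus had an A median at both times of activation, like the B members, and in progenitors a B median, unlike them.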

How the data were processed

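PC1 scores were deposited by the authors, 1 track per group, with lists of positive and negative domains of the untreated track. Per the submitters' processing notes, HiC-Pro, Bowtie2, HOMER and the mouse build mm9 were used, with no version or setting given. The scores are centred and scaled on each chromosome, so zero is the chromosome's own mean. Of 165 samples, 17 are Hi-C, and the other 148 were not analysed here. Sequences and gene names were not used, since the reference tables are of another build than mm9.

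Bins with a non-zero score in all 4 tracks on chromosomes 1 to 19 were kept, and 1398 had their centre in no domain. The domain lists served to choose bins and to name their neighbours. Signs, differences, island heights and switches (least difference 0.5 root mean squares) were computed with Python 3.11.15, numpy 2.4.6 and pandas 2.3.3, and drawn with matplotlib 3.10.9. Scripts were tested on simulated data. Named runs follow a rule: the 5 longest, and among runs of at least 2 bins the 5 at either end of the mean of the other 3 tracks, of 30 min minus 15 min, and of activated minus progenitor, which gave 32 runs. Only some of them are described. Members, rules and lists were chosen with earlier results of these data known. The alternatives were other least differences, runs of at least 2 switched bins, quantile normalization, chromosome X, a stricter membership, other neighbours, and members away from zero or from stretches without values.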

Additional observations from a re-analysis of the deposited data

Results flagged for a closer look

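In 10 of the 32 named runs, mean PC1 at 30 min and mean PC1 at 15 min lay on opposite sides of the untreated value. Whether the differences between the times exceed chance was not tested, since each time has 1 track, and time goes with replicate number. In 7 of these runs 30 min was the lower. The difference of 30 min minus 15 min was -1.21 on chromosome 16 from 67600001 to 67650000 and -1.10 on chromosome 6 from 55925001 to 55975000. It was -1.07 on chromosome 3 from 42200001 to 42275000 and -0.984 on chromosome 12 from 99475001 to 99525000. Smaller differences were -0.579 on chromosome 4 from 19900001 to 20000000, -0.551 on chromosome 7 from 48625001 to 48900000 and -0.377 on chromosome 13 from 98775001 to 98825000. In 3 runs 30 min was the higher, by 1.18 on chromosome 1 from 56200001 to 56275000, 1.01 on chromosome 2 from 168375001 to 168425000 and 0.919 on chromosome 1 from 87475001 to 87525000. As most of these runs were named for a large difference between the times, their sizes are no independent evidence.

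The A members as a set also lay on opposite sides of the untreated track. Their mean was -0.215 relative to it at 30 min and 0.0721 at 15 min, which is a difference of -0.287 between the times, also not tested. The untreated values of these bins are above zero by the rule. With quantile normalization both times lay below the untreated track, by -0.324 at 30 min and -0.171 at 15 min, so the opposite sides hold for the deposited scale only.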

How the results depend on the processing

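Of 143 recomputed values of 31 results, 98 moved little, 40 moved and 5 changed the direction that led. A count moved little within a set ratio of the reported one, and a share within its 95% confidence interval. A median or mean did so within 1 SD over the autosomes, which is a wide limit for medians near zero. All 31 results moved little with membership limited to bins without any base in a domain, and 30 did with chromosome X added. The exception was the share of switches to A at 30 min against 15 min, 20.4% with chromosome X and 11.0% without it. With a sign change of any size, 420 members switched at 30 min against 15 min (209 as reported), 473 at 15 min against progenitors (298), 347 at 30 min against progenitors (162), 786 in untreated neutrophils against progenitors (439), 639 at 15 min against untreated neutrophils (279) and 921 at 30 min against untreated neutrophils (550). With a least difference of 1 root mean square the counts were 14, 57, 6, 85, 15 and 85 in the same order. Shares of all autosomal bins were not computed at these limits or with quantile normalization. Whether members still exceed all bins there is thus not shown. The share of switches to A in untreated neutrophils against progenitors was 46.7% as reported, 52.5% with any size and 54.0% with quantile normalization. That normalization gave 191 switched members at 15 min against progenitors, and shares of switches to A of 49.1% at 30 min against progenitors, 37.8% at 15 min and 39.6% at 30 min against untreated neutrophils. It put the median of members at 0.00536 in progenitors, 0.0266 at 15 min and 0.00126 at 30 min. Progenitors then lay above 30 min, while the reported medians were 0.0845 and 0.151. The progenitor median still counts among the values that moved little. A members were then A in 43.8% of bins in progenitors, 52.9% at 15 min and 33.7% at 30 min, and B members were B in 40.8%, 46.5% and 27.1%. A islands of their own made up 19.9%, 40.6% and 11.2% in those tracks, with median heights of 0.364, 0.439 and 0.226, so the order of the 3 tracks stayed as reported for A islands. For B islands the order of presence did not stay, with 20.8%, 28.9% and 11.4%, while that of the median heights did, with -0.304, -0.448 and -0.198. Neighbours 100 kb away gave mean deviations of 0.359, 0.452 and 0.245. Among members with an absolute untreated PC1 of at least 0.1, A members were A in 48.0% of bins in progenitors, 81.2% at 15 min and 42.0% at 30 min. Such B members were B in 46.9% of bins in progenitors, 28.5% at 15 min and 22.2% at 30 min. At 15 min the share that was A was then higher in A members than in B members, the reverse of the reported order. The causes of these shifts were not tested. No paired analysis was possible because each group has 1 track. The reads behind each track are unknown, so what depth limits cannot be given.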

Other observations

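Chromosome X, left out of the counts above, held 95 bins outside the listed domains of 5844 (1.63%), close to the autosomal share. They were above zero in 45.3% of cases in progenitors, 42.1% in untreated neutrophils, 51.6% after 15 min and 76.8% after 30 min. On the autosomes 79.8% of members were above zero at 15 min and 61.4% at 30 min, so the order of the activated tracks was the opposite on chromosome X. The 40 A members of chromosome X were above zero in 37.5% of cases in progenitors, 62.5% at 15 min and 67.5% at 30 min. The 55 B members were above zero in 50.9%, 43.6% and 83.6% in those tracks. Its domain bins were above zero in 38.7% of cases in progenitors, 41.4% in untreated neutrophils, 43.8% after 15 min and 48.1% after 30 min, so the whole chromosome had its highest share at 30 min. With 1 chromosome and 1 track per group, none of this was tested.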
